A study of Macaca mulatta with 252 samples.

Results

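Growth factors and their receptors were followed across the adult rhesus macaque brain. The members were the genes whose symbols begin with FGF, FGFR, IGF, IGFBP, BMP, BMPR, TGFB, GDF, ACVR, NTRK, NTF, PDGF, VEGF, ERBB or NRG (followed by a number where the family is numbered). This rule gave 81 genes of the 14133 genes that have a probe set annotated with a single symbol, and the brightest probe set, by mean intensity, stood for each gene. Of the 81, 57 had a mean over the experimental arrays above the median of all probe sets, which was 4.77 on the log2 scale. The rule reads symbols only, so it also takes in genes whose products are not growth factors or receptors. Among these are the RNA-binding proteins IGF2BP1, IGF2BP2 and IGF2BP3, the kinase BMP2K, the FGFR1 fusion partner FGFR1OP2, the adaptors TGFB1I1 and TGFBRAP1, and the metalloprotease BMP1.

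RNA came from pieces of tissue cut out of *Macaca mulatta* brain by laser capture, extracted, amplified through 2 cycles from 5 ng of total RNA and hybridised to the GeneChip Rhesus Macaque Genome Array. The 57 region groups covered 10 cortical areas: primary motor (M1), somatosensory (S1), auditory (A1) and visual (V1) cortex, secondary visual cortex (V2), the visual middle temporal area (MT), the temporal area (TE), dorsolateral prefrontal cortex (DLPFC), the anterior cingulate gyrus (ACG) and orbitofrontal cortex (OFC). ACG, OFC and M1 were cut into layers 2, 3, 5 and 6, the other areas into layers 2 to 6, and V1 further into 4A, 4B, 4Ca and 4Cb. The remaining groups were the hippocampal fields CA1, CA2, CA3 and dentate gyrus (DG), and the magnocellular (M), parvocellular (P) and koniocellular (K) divisions of the dorsal lateral geniculate nucleus (LGN), the thalamic relay of vision. In 54 groups there were 4 animals with 1 array each, and in 3 there were 3 animals. The animals, 3 males (here A, B and C) and 3 females (D, E and F), were untreated as far as the labels say, and their ages are not given in the sources used here. A further 27 arrays were controls by their titles: 15 of a whole-brain RNA pool, 9 of CA3 and 3 of MT. The 9 titled CA3 did not read like the CA3 group in every member. ACVR1C averaged 7.39 in them, 7.26 in the MT controls and 9.98 in the CA3 group. NRG1 averaged 6.59, 6.60 and 8.31 in the same order. The source of this gap was not tested, and the control arrays are in none of the 57 groups. Amplification ran in 3 batches, and the labels do not say which array belongs to which, so batch and region could not be separated array by array. Each captured piece holds many cell types, and fewer cells of a type and less RNA per cell cannot be told apart in these values.

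Growth factors are secreted proteins that bind receptors at the surface of the same or nearby cells. Fibroblast growth factors, insulin-like growth factors, neurotrophins, PDGF, VEGF and neuregulins act through receptor tyrosine kinases, while the TGF-beta, activin and bone morphogenetic protein group acts through paired serine-threonine kinase receptors that phosphorylate SMAD proteins. In the brain these families steer patterning and neurogenesis during development, and in the adult they are known for roles in myelination, synaptic plasticity and neuronal survival. FGF11 to FGF14 differ from the rest of their family in that they stay inside the cell and bind voltage-gated sodium channels.

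The medians of the arrays ran from 4.72 to 4.99 (log2), and each array correlated with the other arrays of its group at 0.954 or more, 0.988 in the median array. CUX2, a marker of upper layers, had group means between 8.79 and 10.1 in layers 2 and 3 and between 3.49 and 7.09 in layers 5 and 6. It was not confined to layers 2 and 3, with 9.41 to 9.89 in 4A to 4Cb of V1 and 7.93 to 8.66 in the LGN divisions. FEZF2, listed as a marker of layer 5, reached 9.71 in layer 5 of DLPFC but did not single out that layer. It was higher in layer 6 than in layer 5 of S1, V2 and V1 (9.08 against 8.36 in V1) and lower in the other areas. In CA2 it read 10.3. PROX1, a marker of dentate granule cells, stood at 10.2 in DG against 6.46 to 6.59 in the CA fields, and TCF7L2, which marks thalamus, at 12.7 in each LGN division. Of the 197 cortical arrays, 34 were closest in expression to another layer or sublayer of their own area. For 28 it was a neighbouring layer or sublayer. Among these were the 4Ca arrays of male A and male C, closest to 4Cb, and of female D, closest to 4B. For the other 6 it was a layer whose number differs by 2. Of these 6, 4 lay between layers 3 and 5 of M1 (layer 3 from male A and female E, layer 5 from female E) or OFC (layer 3 from male B), which are adjacent cuts there because no layer 4 was taken. The other 2, layer 4 of DLPFC from female D and layer 3 of A1 from male A, were closest to a layer beyond the adjacent cut. Leaving the 6 out kept each of the 15 member calls among layers and areas that are described here.

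A member was called where the Benjamini-Hochberg adjusted p of limma's moderated test, over all genes tested and with the animal as a block, was under 0.05 and the log2 change, or the range of the fitted means for an F test, was at least 1. The granular areas, here DLPFC, S1, A1, V2, MT and TE, are those cut into a single layer 4. Among their layers 2 to 6, in 4 animals, 7 of 58 members were called (12.1%), against 6.6% of all genes tested. Between deep and upper layers 3 of 57 were called (all genes 2.13%). Among the 10 areas 4 of 57 were called, or 7.02% against 9.2% of all genes. Among the layers of V1 the count was 19 of 57 (all genes 14.7%), among the hippocampal fields 16 of 57 (all genes 19.1%, and NTF3, which is described by its values alone, is among the 16), and among the LGN divisions 0 of 55 (all genes 0.395%). The hippocampus differed from cortex in 7 of 58 members (all genes 6.07%), the LGN from cortex in 12 of 58 (all genes 10.5%), and the LGN from hippocampus in 19 of 58 (all genes 14.4%). The range of the 57 group means had a median of 1.48 for the members above the array's median, from 0.637 to 5.2, against 1.25 for all 10300 such genes.

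**Figure D1:**
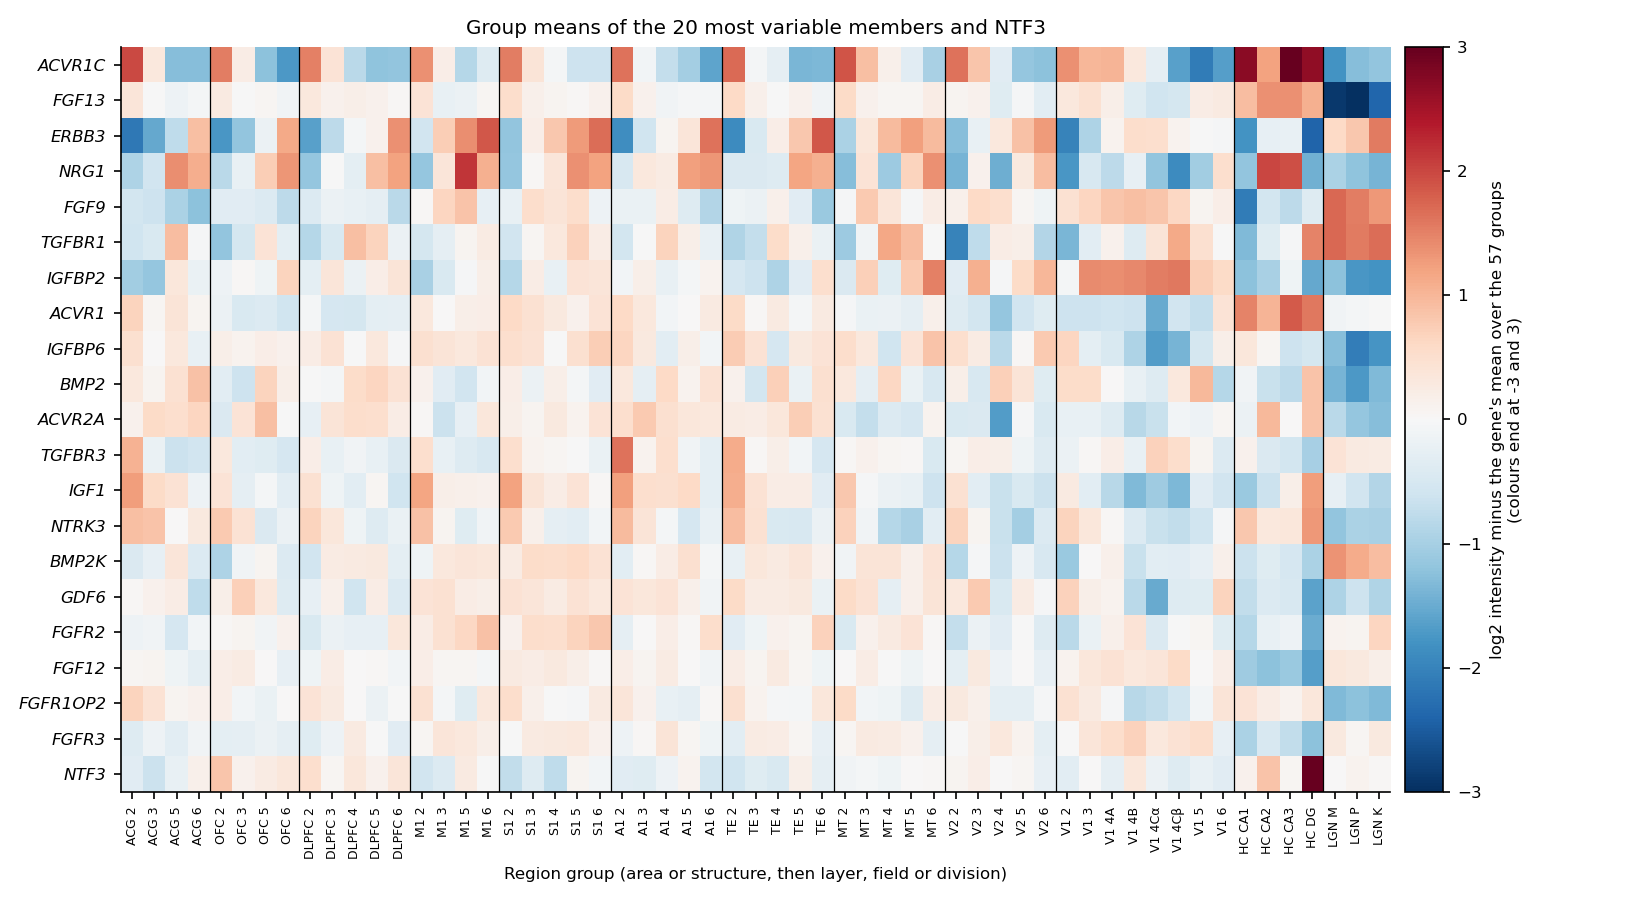
Group means of the 20 members with the widest range and of NTF3, drawn as the log2 intensity minus the gene's mean over the 57 groups, with one column per region group and colours that end at -3 and 3. FGF13 is lowest in the 3 LGN divisions, ACVR1C is high in layer 2 and in the hippocampus, and NTF3 stands out in the dentate gyrus.

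Among the neuregulins and their ErbB receptors, ERBB3 and NRG1 had the widest layer differences. Neuregulin 1 (NRG1) is a ligand of ERBB3 and ERBB4, and ERBB3, which signals through a partner such as ERBB2, is known from cells of the myelinating lineages. ERBB3 rose step by step with cortical depth, with means of 5.36, 6.51, 7.19, 7.60 and 8.24 in layers 2 to 6. In layer 2 the animal means over the granular areas were 5.38 in male A, 5.04 in male C, 5.50 in female D and 5.54 in female E, and in layer 6 they were 8.45, 8.10, 8.22 and 8.21. No animal's layer 2 reached any animal's layer 3, and no animal's layer 5 reached any layer 6. Layer 2 stood below the mean of the other layers by a log2 change of -2.02 (SE 0.072, limma adjusted p = 1.14e-13, lower in 4 of 4 animals), or 4.06-fold lower, and layer 6 above it by 1.58 (SE 0.072, adjusted p = 7.96e-12). Called contrasts of layer 2 made up 2.71% of all genes tested and those of layer 6 made up 1.63%.

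NRG1 was likewise low in layer 2 and high in layers 5 and 6, but layer 4 lay below layer 3, with means of 5.41, 6.39, 5.90, 7.30 and 7.56 in layers 2 to 6. Layer 2 values were 5.30, 5.53, 5.4 and 5.42 in animals A, C, D and E, layer 5 values were 7.37, 7.52, 7.04 and 7.25, and layer 6 values 7.46, 7.46, 7.86 and 7.47. Layers 5 and 6 overlapped with each other and not with layer 2. The change in layer 2 was -1.37 (SE 0.121, limma adjusted p = 2.59e-08) and in layer 6 1.31 (SE 0.121, adjusted p = 7.90e-08), each in 4 of 4 animals.

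The same pair of genes separated deep layers (5 and 6) from upper layers (2 and 3) when all 10 areas and 5 animals were used. ERBB3 stood at 7.61, 7.34, 7.61, 7.76 and 7.65 in the deep layers of animals A to E and at 6.10, 5.34, 5.46, 5.88 and 5.70 in their upper layers. The difference was 1.90 (SE 0.080, limma adjusted p = 3.46e-07), 3.73-fold higher in deep layers. NRG1 stood at 7.21, 7.37, 7.52, 7.33 and 7.26 in deep layers and at 5.92, 5.44, 5.97, 5.58 and 5.84 in upper layers, a difference of 1.59 (SE 0.086, adjusted p = 1.35e-06). For both genes the lowest deep value lay above the highest upper value. These values are means over areas, and V1 had another order. There NRG1 stood at 5.33 in layer 5, below 5.89 in layer 3. ERBB3 in V1 was highest in 4B and 4Ca (7.30 and 7.29) and stood at 6.78 and 6.74 in layers 5 and 6. ERBB3 and NRG1 share the direction between these layers, but this comparison draws on many of the same arrays as that among layers 2 to 6.

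Across areas, ERBB3 was highest in M1 and lowest in ACG, taking the mean of layers 2, 3, 5 and 6, which every area has. M1 values were 7.52, 7.38 and 7.93 in animals A, C and D, and ACG values were 5.64, 5.96, 6.36 and 5.61 in animals A, B, D and E. M1 stood 1.03 above the mean of the other areas (SE 0.111, limma adjusted p = 3.32e-07, 3 of 3 animals, all genes called 0.253%) and ACG stood at -1.02 against it (SE 0.099, adjusted p = 4.66e-09, 4 of 4 animals, all genes called 1.19%). Both lie close to the threshold of 1 and missed it without single animals: the ACG value was -0.95 without male A and -0.92 without female E, and the M1 value was 0.96 without female D. NRG1 was lowest in V1, at 5.29, 5.84, 5.77 and 5.84 in animals A, C, D and E, whereas no other area had an animal under 6.23 on this measure. That difference was -1.03 (SE 0.108, adjusted p = 1.05e-08, all genes called 1.2%) and became -0.87 without male A. The 10 areas fall into 2 sets by the spread of the array's hybridisation controls. In the set with the narrow spread alone (A1, ACG, M1, S1, TE and V1) the values were -1.08 for ERBB3 in ACG, 1.12 for ERBB3 in M1 and -1.12 for NRG1 in V1, and 4 members were called. V1 stood apart within that set in another group of control probe sets, the poly-A controls. Their mean was 10.06 in V1 and 8.81 to 9.38 in the set's other areas. With the poly-A level as a covariate in the fit over areas, the 3 calls were kept. In DLPFC, MT, OFC and V2 alone, 0 were called, but this set lacks ACG, M1 and V1 and so could not test these calls.

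**Figure D2:**
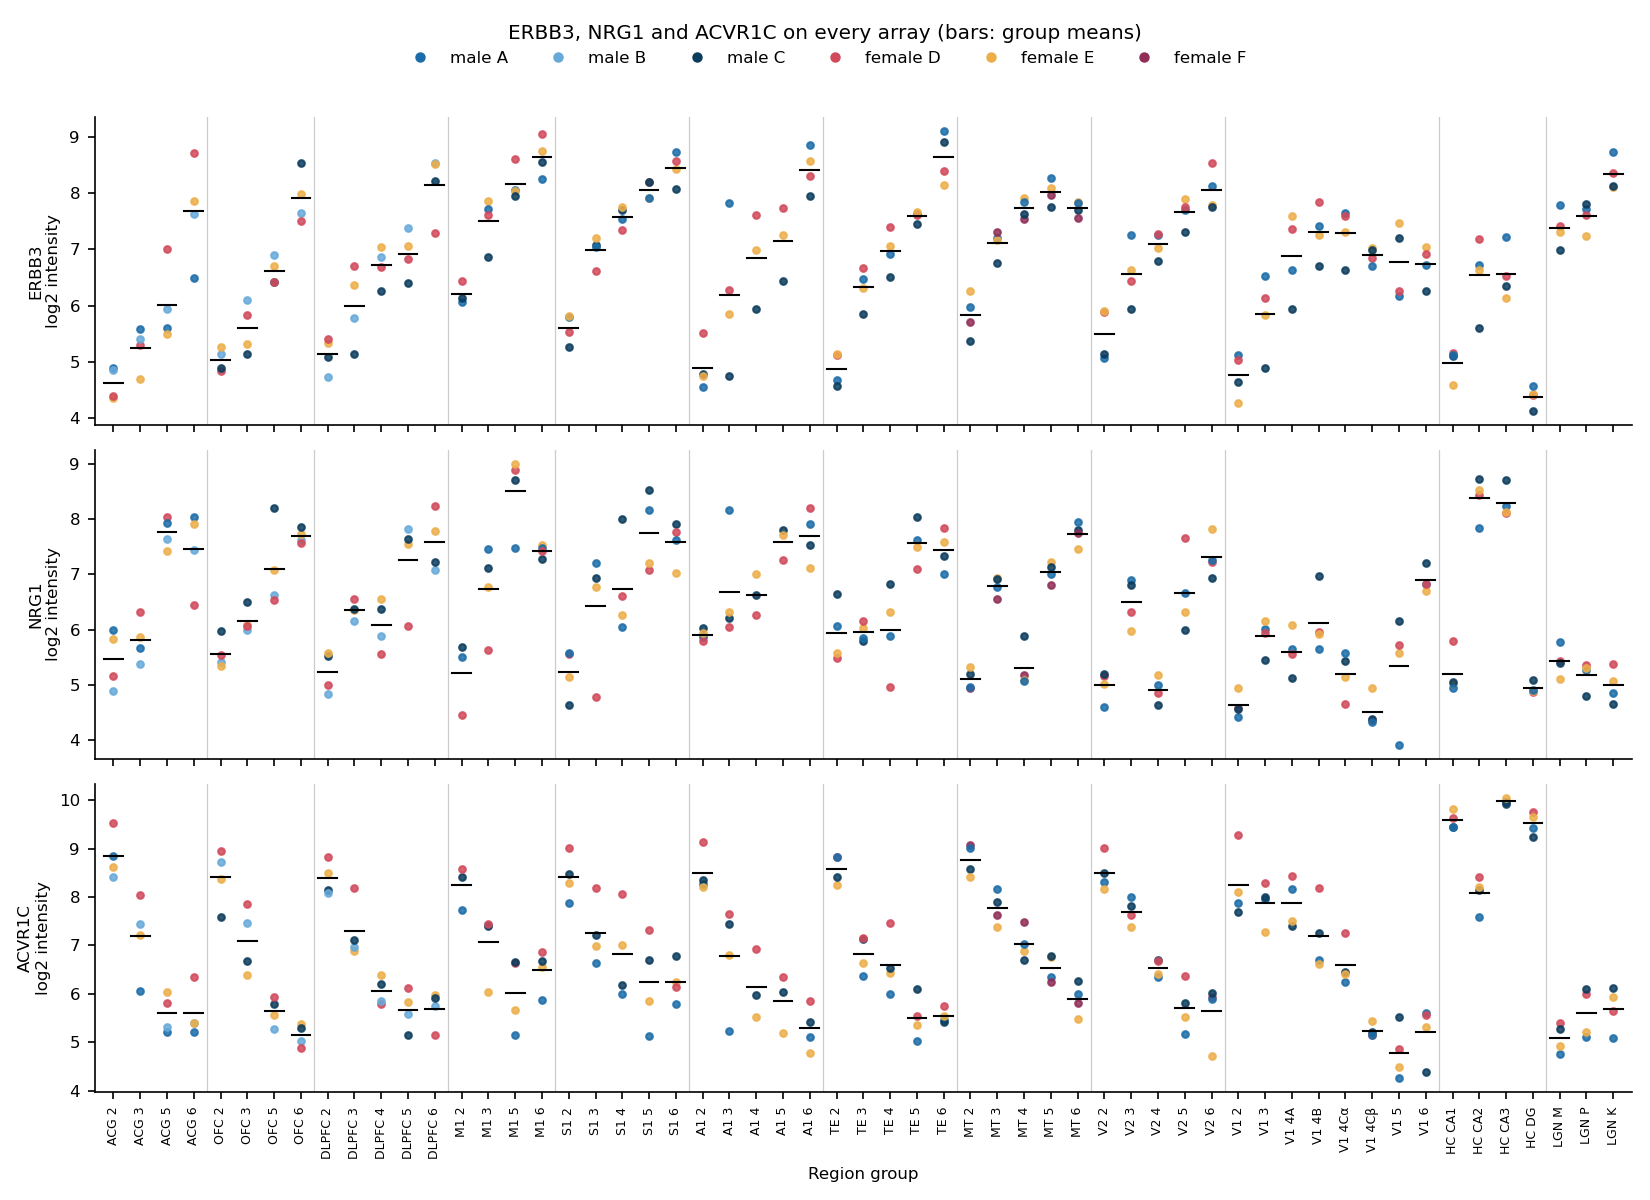
Log2 intensity of ERBB3, NRG1 and ACVR1C on each experimental array, coloured by animal, with a bar at each group's mean. ERBB3 climbs from layer 2 to layer 6 in most areas, but in V1 it is highest in 4B and 4Ca. NRG1 is high in CA2 and CA3 and, averaged over areas, in layers 5 and 6, though layer 5 of V1 lies below its layer 3. ACVR1C falls from layer 2 downwards and is high in the hippocampus.

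Within the hippocampus NRG1 split the fields into a high and a low pair. CA2 arrays read 7.84, 8.45, 8.54 and 8.73 and CA3 arrays 8.12, 8.14, 8.25 and 8.72, whereas CA1 arrays read 4.93, 5.01, 5.05 and 5.79 and DG arrays 4.87, 4.89, 4.91 and 5.09. CA2 and CA3 overlapped with each other, and neither overlapped with CA1 or DG. Against the mean of the other fields the change was 2.24 in CA2 (SE 0.148, limma adjusted p = 1.24e-07), 2.13 in CA3 (SE 0.148, adjusted p = 1.84e-07), -2.02 in CA1 (adjusted p = 2.04e-07) and -2.36 in DG (adjusted p = 6.98e-09). Calls of this kind covered 2.79% of all genes in CA2, 2.93% in CA3, 3.48% in CA1 and 10.2% in DG. ERBB3 was lowest in DG, at 4.13, 4.41, 4.43 and 4.57 (change -1.65, SE 0.183, adjusted p = 2.56e-06), and was higher in CA2 (1.23) and CA3 (1.26). Its DG arrays all lay below the median of all probe sets, so the size of these ERBB3 changes is uncertain. NRG3, a neuregulin of neurons that binds ERBB4, was also lower in DG, at 8.11 to 8.43 against 9.01 to 9.70 in the CA fields (change -1.07, adjusted p = 1.02e-07), which was -0.71 with the mean over its probe sets.

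Over whole structures, NRG1 was lower in the LGN than in cortex by a log2 change of -1.34 (SE 0.120, limma adjusted p = 1.71e-06) and than in hippocampus by -1.51. ERBB3 took the opposite position: LGN means were 7.55 to 8.08, cortical means 6.61 to 6.97 and hippocampal means 5.30 to 5.91, with no overlap among the 3. The LGN exceeded the hippocampus by 2.15 (SE 0.086, adjusted p = 8.35e-10) and the hippocampus stood at -1.24 against cortex (adjusted p = 3.93e-07). Among the layers of V1, layer 6 had the highest mean of NRG1 (change 1.57, limma adjusted p = 5.48e-05) and 4Cb the lowest (-1.17, adjusted p = 0.0029). The 4Cb mean lay below the median of all probe sets, so the size of that change is uncertain. NRG4, whose mean over all arrays missed the filter, passed it in V1 and among layers 2 to 6 of the granular areas. Among those layers its means were 4.60, 5.07, 5.17, 4.75 and 4.37, a range of 0.80. Only layers 3 and 4 lay above the filter and admitted it, so these values are a description with no test. The count of members tested among those layers includes it. In V1 it was called by the F test. It was highest there in 4Cb at 5.73 to 6.15 and lowest in layer 6 at 3.62 to 5.07, a range of means of 1.54 (adjusted p = 0.0178). NRG2, NRG3 and ERBB2 were not called among layers, among areas or between structures.

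Markers of oligodendrocytes, the myelinating cells of the brain, moved with ERBB3 in many of these contrasts, though not every marker was called in each. Of the 9 markers listed, 3 had a probe set with a single symbol, among them MBP, a myelin protein, and UGT8, an enzyme of myelin lipid synthesis. MBP changed by -2.02 in layer 2, 1.25 in layer 6, -1.35 in ACG, 1.58 in CA2, 1.68 in CA3 and -2.14 in DG, and was not called in M1. UGT8 changed by -2.12 in layer 2, 1.44 in layer 6, -1.23 in ACG, 1.35 in M1, 1.39 in CA2, 2.16 in CA3 and -2.77 in DG. The third measured marker enters only the list means that follow. The mean level of the list was 9.32 to 10.07 in layer 2 and 10.19 to 11.63 in the other layers, 11.1 to 11.43 in deep and 9.46 to 10.33 in upper layers, and 11.59 to 11.75 in LGN, 10.58 to 10.94 in cortex and 9.8 to 10.07 in hippocampus. Across the 57 group means, ERBB3 correlated with the list at r = 0.97 and NRG1 at r = 0.51, as a description of groups that share animals and arrays. The part of these markers in the ERBB3 and NRG1 results was not tested. ERBB3 had a second probe set that followed the first at a smaller size (-1.38 in layer 2, 1.30 for deep minus upper, 0.78 in M1, -1.31 in DG), while a further one stayed near 0 in layer 2 (0.01) and deep minus upper (0.00). The second NRG1 probe set moved by -0.42 in layer 2, 0.47 for deep minus upper and -0.93 in DG, by -0.01 in V1 and, in the other direction from the first, by 0.24 in LGN minus cortex. With the mean over a gene's probe sets in place of the highest one, the calls of both genes among layers 2 to 6, among areas and between deep and upper layers were lost, with the largest value -0.86 for ERBB3 in layer 2. In the hippocampal fields only NRG1 in DG kept its call, at -1.0, with 0.87 for NRG1 in CA2, and between structures only ERBB3 in LGN minus hippocampus did, at 1.05.

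In the TGF-beta, activin and BMP group, 22 of 30 members lay above the array's median, and the widest ranges were those of the receptors ACVR1C and TGFBR1. ACVR1C (ALK7), a type I receptor for nodal and some activins and GDFs, had the widest range of all members above that median, 5.2 over the group means. In cortex it was highest in layer 2 and fell with depth, with means of 8.54, 7.37, 6.54, 5.90 and 5.74 in layers 2 to 6. Layer 2 values were 8.50, 8.41, 8.97 and 8.30 in animals A, C, D and E, and layer 6 values 5.78, 5.97, 5.76 and 5.45. Layer 2 overlapped with no other layer, and layers 5 and 6 overlapped with each other. The change in layer 2 was 2.16 (SE 0.095, limma adjusted p = 1.53e-12), 4.46-fold, with -1.15 in layer 5 (all genes called 0.69%) and -1.35 in layer 6.

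Averaged over the areas that each animal had, ACVR1C was lower in deep than in upper layers by a log2 change of -2.26 (SE 0.081, limma adjusted p = 1.65e-07, 5 of 5 animals), 4.79-fold. Deep values ran from 5.39 to 5.96 and upper values from 7.66 to 8.42, without overlap. The step was larger in V1 than in the other areas of the same animals by -0.96 (SE 0.137, adjusted p = 0.0372, 4 animals), just under the size threshold, with -0.73 in male A, -1.13 in male C, -1.26 in female D and -0.74 in female E. For this difference 0 of 57 members were called at both thresholds (all genes 0.525%), 1 passed the adjusted p alone (all genes 0.807%) and 10 passed an unadjusted p under 0.05 (all genes 15.5%). In V1 itself, ACVR1C was above the other layers in layers 2 (1.85), 3 (1.43) and 4A (1.43) and below them in 4Cb (-1.59), 5 (-2.12) and 6 (-1.61), so the sign turned within layer 4. Calls in single V1 layers made up 3.95% of all genes tested in layer 2, 1.23% in layer 3, 0.226% in 4A, 2.49% in 4Ca, 1.77% in 4Cb, 1.48% in layer 5 and 2.9% in layer 6. The 4Cb arrays read 5.15, 5.15, 5.22 and 5.44 and the 4A arrays 7.41, 7.50, 8.17 and 8.44. The 4A call rests on male A, without which its value was 1.27 and did not pass the adjusted p.

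ACVR1C reached its highest levels in the hippocampus. CA3 arrays read 9.93, 9.96, 9.96 and 10.05 and CA1 arrays 9.44 to 9.82, against 7.58, 8.14, 8.20 and 8.41 in CA2, which stood at -1.61 against the other fields (SE 0.100, limma adjusted p = 8.77e-08). Animal means were 9.10 to 9.44 in hippocampus, 6.53 to 7.18 in cortex and 4.98 to 5.83 in LGN. Hippocampus exceeded cortex by 2.53 (SE 0.122, adjusted p = 2.47e-08), 5.78-fold, and the LGN fell below hippocampus by a log2 change of -3.83 (SE 0.122, adjusted p = 1.31e-10), 14.2-fold. ACVR1 (ALK2), a type I receptor for BMPs and activins, was also higher in hippocampus (8.69 to 9) than in cortex (7.15 to 7.38), by 1.55 (SE 0.092, adjusted p = 1.15e-07), and was not called between LGN and cortex. ACVR2A, a type II receptor for activins, was lower in LGN (4.87 to 5.4) than in cortex (6.23 to 6.35) by -1.15 (SE 0.135, adjusted p = 1.65e-05) and than in hippocampus by -1.5. The ACVR2A call between LGN and cortex was lost, at -0.90, when cortex was taken as DLPFC, MT, OFC and V2, the areas in the same control set as LGN and hippocampus.

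**Figure D3:**
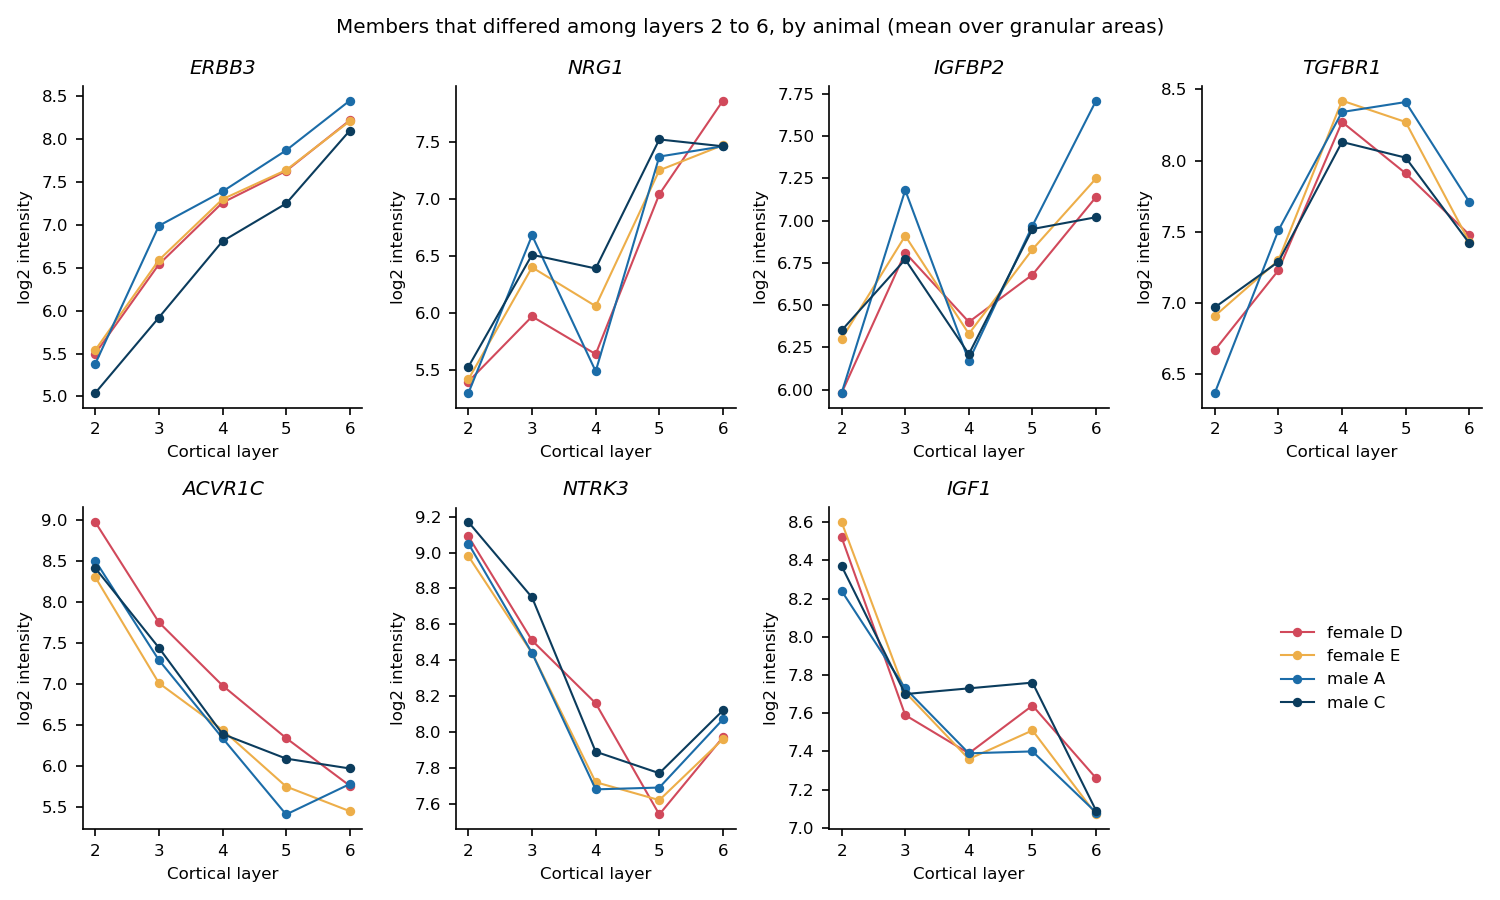
Log2 intensity of the 7 members called among layers 2 to 6, as the mean over granular areas in each of 4 animals. ERBB3 rises and ACVR1C falls from layer 2 to layer 6 with the animals' lines close together, while TGFBR1 peaks in layers 4 and 5 and IGFBP2 dips in layers 2 and 4.

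TGFBR1 (ALK5), the type I receptor for TGF-beta, had a middle-layer peak. Its means were 6.73, 7.33, 8.29, 8.16 and 7.51 in layers 2 to 6. Layer 2 values were 6.37, 6.97, 6.67 and 6.91 in animals A, C, D and E and layer 4 values 8.34, 8.13, 8.27 and 8.42. Layer 2 lay below the other layers by a log2 change of -1.09 (SE 0.091, limma adjusted p = 1.23e-08), which was -0.92 without male A. In V1 the peak was in 4Cb, at 8.31, 8.90, 8.96 and 9.21 (change 1.30, adjusted p = 0.000458), and layer 2 was lowest at 6.24 to 6.48 (change -1.57). In the hippocampus, DG read 9.14, 9.18, 9.19 and 9.20 and CA1 6.14, 6.31, 6.44 and 6.63, a change of 2.05 in DG (SE 0.235, adjusted p = 3.50e-06) and -1.68 in CA1 (adjusted p = 8.99e-05). The 4 DG arrays differed by less than 0.1, and those of CA2 and CA3 were far more spread, from 6.29 to 8.02 and from 6.94 to 8.53. In LGN it stood at 8.97 to 9.58 against 7.52 to 7.68 in cortex and 7.15 to 7.89 in hippocampus, 1.78 above cortex (SE 0.108, adjusted p = 5.51e-08) and 1.71 above hippocampus. The other TGFBR1 probe sets lay below the array's median, and one at 4.41 moved by -0.17 in layer 2, so with the mean over probe sets the values were -0.44 in layer 2, 0.67 in DG and 0.69 for LGN minus cortex, none past the threshold. TGFBR3 (betaglycan), a co-receptor that presents TGF-beta, was highest in layer 2 of A1, at 8.03, 8.17, 8.45 and 8.81, and lowest in DG, at 5.57 to 5.99. It was called by the F test among hippocampal fields (range 1.11, adjusted p = 1.97e-05) and in V1 (range 1.11, adjusted p = 0.0455).

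Among the ligands, BMP2 and BMP7 parted in the dentate gyrus. BMP2 read 6.33, 6.96, 7.14 and 7.23 in DG and 5.03 to 6.20 in the CA fields (change 1.38, SE 0.161, limma adjusted p = 4.26e-06). BMP7 read 5.80 to 6.28 in DG and 6.70 to 8.24 in the CA fields (change -1.41, SE 0.116, adjusted p = 1.28e-07). Neither overlapped. A second BMP2 probe set moved by 1.84 in DG, but other BMP7 probe sets gave -0.74 and 0.15, and the mean over BMP7's probe sets was -0.61. BMP2 was also lower in LGN (4.46 to 4.67) than in cortex (5.91 to 6.35), by -1.55 (SE 0.091, adjusted p = 4.11e-08), with -1.98 in its second probe set, and than in hippocampus, by -1.31. Its LGN values all lay below the median of all probe sets, so the size of the LGN changes of BMP2 is uncertain. TGFB3, one of the TGF-beta ligands, was higher in LGN (6.43 to 6.75) than in hippocampus (5.45 to 5.75) by 1.03 (SE 0.078, adjusted p = 2.60e-07), which became 0.98 without male A, 0.99 without female D and 0.65 with the mean over its probe sets.

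In V1, BMP2, BMP4, GDF6 and ACVR1 passed the size threshold, which they missed among layers 2 to 6 of the granular areas, where each passed limma's adjusted p alone. Whether V1 differs from other areas in its single layers was not tested. GDF6, a BMP-like ligand, was low in 4Ca, at 4.02, 4.49, 5.35 and 6.03, against 6.41, 6.93, 7.51 and 7.71 in layer 6 (4Ca change -1.52, SE 0.286, limma adjusted p = 0.000607). Its layer 2 value of 1.00 held in 3 of 4 animals and dropped to 0.75 without male A, 0.88 without female D and 0.95 without female E. With the mean over its probe sets the values were -0.87 in 4Ca and 0.37 in layer 2. ACVR1 was also low in 4Ca, at 5.41 to 6.28 (change -1.02, adjusted p = 0.00765), and high in layer 6, at 7.40 to 8.16 (change 1.17, adjusted p = 0.00217). The 4Ca value was -0.89 without female E and -0.92 without male C, and the layer 6 value was 0.96 without male A. BMP2 was lowest in layer 6 of V1, at 4.59, 5.36, 5.4 and 5.41, and highest in layer 5, at 6.46, 6.57, 7.38 and 7.71 (layer 6 change -1.12, adjusted p = 0.00109, and -0.91 without female D). BMP4 was highest in layer 3 and lowest in 4Cb, with a range of 1.65 (F test adjusted p = 9.25e-07). For GDF6, ACVR1 and BMP2 the arrays of each called layer overlapped with those of some other layer.

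The other genes of TGF-beta, activin and BMP signalling were taken from a fixed list of 35, of which 26 were measured and 16 to 19 tested. In layer 2, 2 of 18 rose and 0 fell (all genes called 2.71% in either direction): INHBA, which encodes an activin subunit and so a ligand upstream of these receptors, by 2.51 and SMAD3, which carries the TGF-beta and activin signal to the nucleus, by 1.39. Between deep and upper layers 1 rose and 3 fell of 19 (all genes 2.13%), INHBA (-2.19) and SMAD3 (-1.21) among the latter, and SOSTDC1, a secreted BMP antagonist, rose by 1.27. In DG 5 of 16 rose and 0 fell at both thresholds (all genes 10.2% in either direction), while at the adjusted p alone the list held lower genes as well as higher ones. SMAD3 stood at 2.37 there, SMAD5, an effector of BMP receptors, at 2.01 and LTBP2 at 1.70. LGN against cortex gave 1 higher and 2 lower of 16 (all genes 10.5%), and LGN against hippocampus 0 higher and 3 lower (all genes 14.4%). Across the groups TGFBR1 correlated with TGFBR2, its partner receptor, at r = 0.73 over 57 groups.

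**Figure D4:**
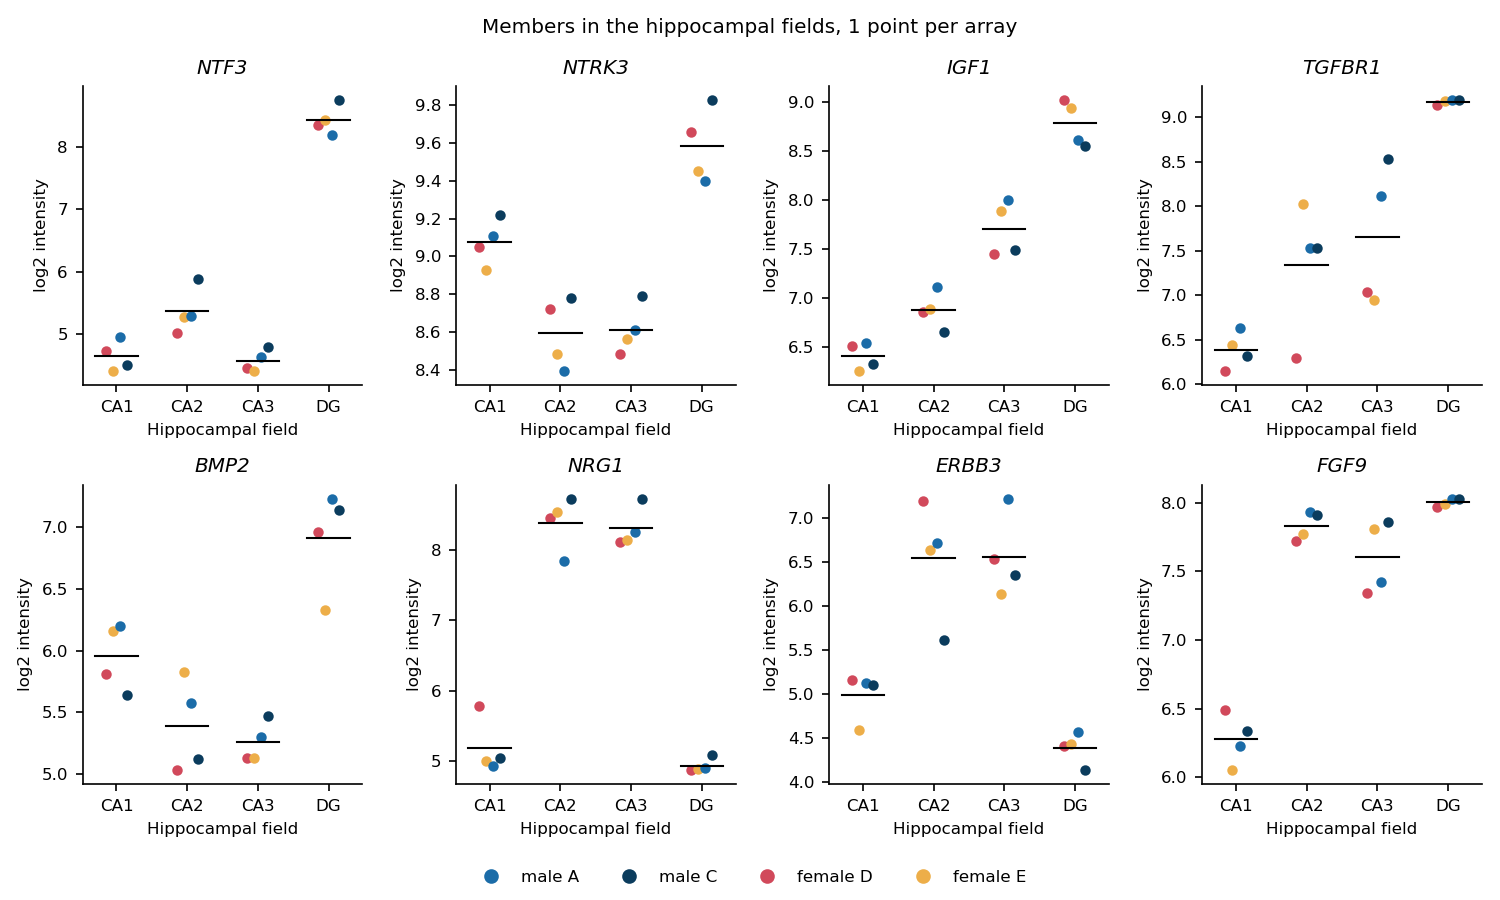
Log2 intensity of 8 members in the hippocampal fields, with 1 point per array and a bar at the mean of the 4 animals. NTF3, IGF1, TGFBR1 and BMP2 are highest in DG, NRG1 is high in CA2 and CA3, and FGF9 is low in CA1.

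Fibroblast growth factors differed most between structures. FGF13, an intracellular family member that binds sodium channels and microtubules, was much lower in the LGN: the animal means there were 7.74, 7.95, 8.02 and 8.09, against 10.84 to 10.95 in cortex and 11.92 to 12.23 in hippocampus. The 3 structures did not overlap. LGN stood below cortex by a log2 change of -2.94 (SE 0.075, limma adjusted p = 3.82e-11), 7.66-fold, and below hippocampus by -4.06 (SE 0.075, adjusted p = 1.70e-12), 16.7-fold, while hippocampus was above cortex by 1.12. These 3 contrasts use the same animal means. FGF12, of the same subfamily, moved differently: LGN values of 10.89 to 11.19 and cortical values of 10.75 to 10.92 differed by 0.21, whereas hippocampal values of 9.43 to 9.63 were lower than cortex by -1.33 (SE 0.068, adjusted p = 3.92e-08). A second FGF12 probe set gave -1.10 and, for LGN minus hippocampus, 1.32 against 1.54 for the first. FGF14, a further member of that subfamily, was 0.92 lower on the log2 scale in LGN than in cortex, a value of -0.92 that passed the adjusted p (1.46e-05) and missed the size threshold. Over the 57 group means FGF13 correlated with FGF14 at r = 0.61 and with FGF12 at r = -0.44.

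FGF9, a secreted ligand of FGFR3 and FGFR2, ran the other way. LGN means were 9.79 to 10.02, cortical means 8.22 to 8.46 and hippocampal means 7.38 to 7.53, again without overlap. LGN exceeded cortex by 1.57 (SE 0.077, limma adjusted p = 8.22e-09), 2.97-fold, and hippocampus by 2.47 (SE 0.077, adjusted p = 1.03e-10). In the hippocampus CA1 was the low field, at 6.05, 6.23, 6.34 and 6.49, against 7.34 to 8.03 in the other fields (change -1.54, SE 0.101, adjusted p = 8.67e-08). FGF9 was also called among the 10 areas, with a range of 1.31 (F test adjusted p = 6.93e-10), from 7.51 in ACG to 8.82 in M1 and 8.78 in V1. The ACG animals read 7.53, 7.53, 7.56 and 7.58 and the M1 animals 8.51, 8.81 and 8.83. Area accounted for 47.7% of the variance of FGF9 over 158 cortical arrays, against a median of 15.1% for the members and 19% for all genes.

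Among the FGF receptors, FGFR3, a receptor of astrocytes, was higher in LGN (10.09 to 10.54) than in hippocampus (9.04 to 9.46) by 1.07 (SE 0.109, limma adjusted p = 3.77e-06). That call was lost without male A, at 0.94, and another FGFR3 probe set moved by 0.05, which gave a mean of 0.56. FGFR2, a receptor found on oligodendrocytes and astrocytes, was lower in DG, at 7.63 to 8.09 against 8.16 to 9.54 in the CA fields (change -1.09, SE 0.096, adjusted p = 2.51e-07), with -0.79 in a second probe set and -0.46 for the mean over all of them. In V1 it ranged by 1.21 from layer 2, the lowest, to 4B. FGFR2 correlated with the oligodendrocyte list at r = 0.74 over the groups, and the part of those markers was not tested. FGF18, a ligand of FGFR3, was higher in layer 3 of V1, at 6.58, 7.44, 7.51 and 7.60 (change 1.03, SE 0.241, adjusted p = 0.00989), a call lost without female E (0.89) or male C (0.97) and with the mean over probe sets (0.41). FGFR1 was not called in any comparison.

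FGFR1OP2 was lower in LGN, at 8.17 to 9.16, than in cortex, at 9.84 to 10.39, by a log2 change of -1.38 (SE 0.083, limma adjusted p = 4.90e-08), and than in hippocampus by -1.57. BMP2K, a kinase named for its induction by BMP2, was higher in LGN, at 7.91 to 8.35, than in cortex, at 6.91 to 7.13, by 1.13 (adjusted p = 9.95e-06) and than in hippocampus by 1.75. A second BMP2K probe set gave 0.70 and 1.05 for these, and the mean over all its probe sets 0.65 and 0.79, under the size threshold. TGFB1I1 was higher in LGN, at 5.42 to 6.07, than in hippocampus, at 4.49 to 4.86, 2.11-fold (limma adjusted p = 5.55e-06), with a log2 change of 0.91 without male C. Its hippocampal values lay around the median of all probe sets, 4.77, so the size of the fold is uncertain. Of the other FGF signalling genes, 11 of 22 listed were tested: 0 were higher and 3 lower in LGN than in cortex (all genes called 10.5% in either direction), the receptor partners FLRT2 (-1.60) and FLRT3 (-1.32) and the pathway inhibitor SPRED2 (-1.29). In DG 1 rose, FLRT3 by 2.42, and 1 fell, the feedback inhibitor SPRY1 (-2.11), against 10.2% of all genes, and in layer 2 FLRT3 fell by 1.02 on the log2 scale.

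**Figure D5:**
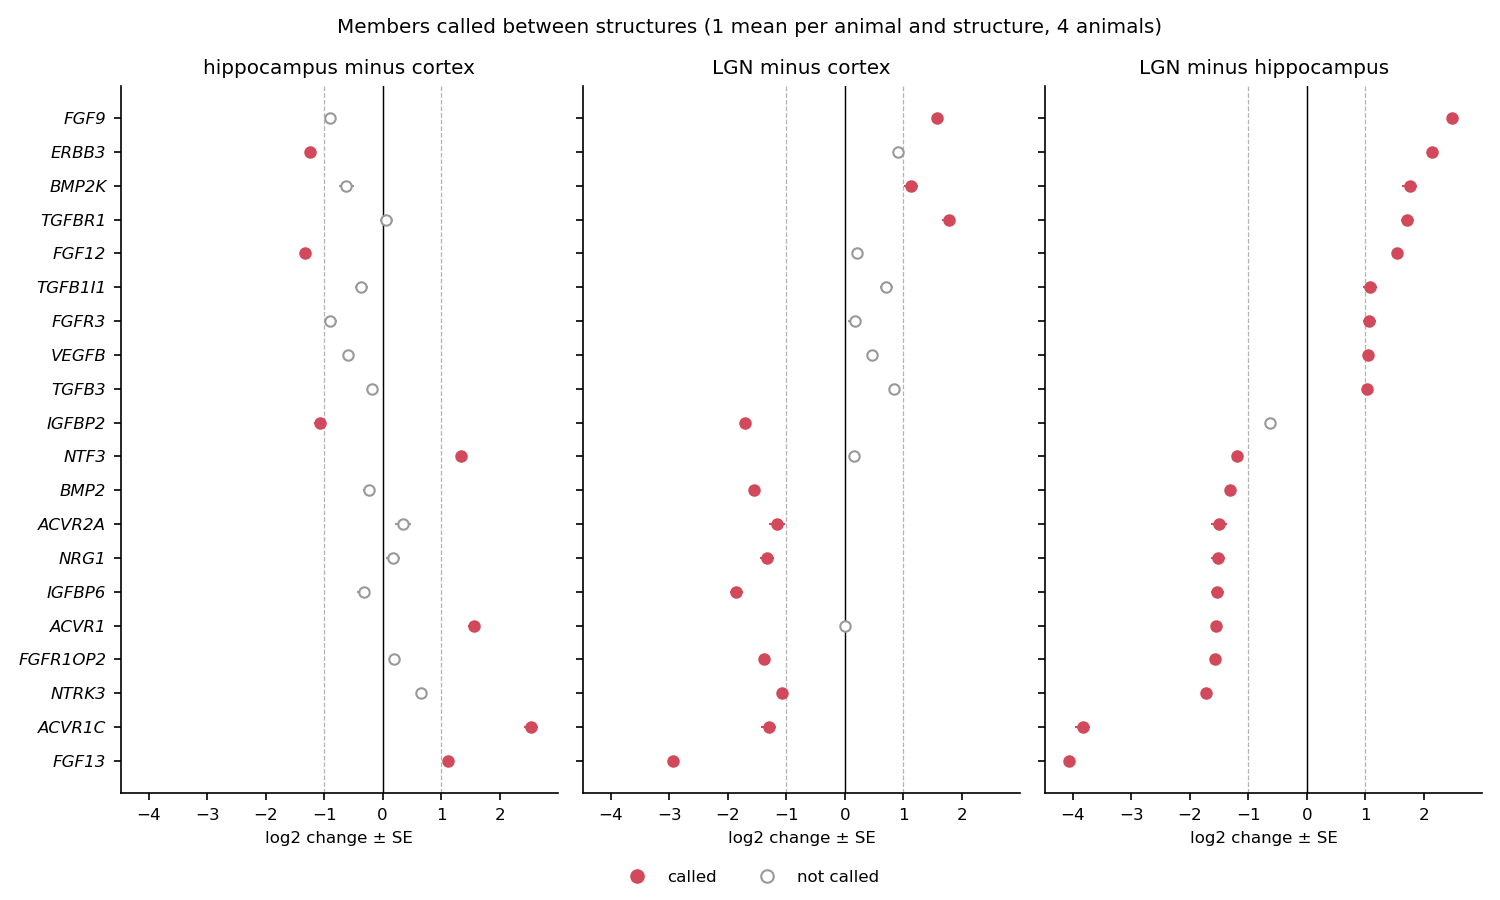
Log2 changes ± SE for the 20 members called between at least one pair of structures, from 1 mean per animal and structure in 4 animals, with filled points for called changes and dashed lines at -1 and 1. NTF3 is drawn as a description, since its DG level admitted it. FGF13 and ACVR1C have the largest negative changes for LGN minus hippocampus (-4.06 and -3.83) and FGF9 the largest positive one (2.47).

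Insulin-like growth factor 1 (IGF1) and the binding protein IGFBP2, which holds IGFs outside cells and modulates their access to receptors, were both called among layers and had different orders. IGF1 was highest in layer 2, with means of 8.43, 7.68, 7.47, 7.58 and 7.13 in layers 2 to 6 (F test adjusted p = 4.15e-09). Layer 2 values were 8.24, 8.37, 8.52 and 8.60 in animals A, C, D and E, and layer 6 values 7.08, 7.09, 7.26 and 7.07, with no overlap. IGFBP2 was lowest in layers 2 and 4 and highest in layer 6, with means of 6.15, 6.92, 6.28, 6.86 and 7.28 (F test adjusted p = 7.44e-07). Its layer 2 values were 5.98, 6.35, 5.98 and 6.30 and its layer 6 values 7.71, 7.02, 7.14 and 7.25. Over the 57 group means the 2 genes correlated at r = -0.46, and over the 50 cortical groups at r = -0.79, as a description of groups that share animals.

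Within the hippocampus IGF1 was highest in the dentate gyrus: DG arrays read 8.55, 8.61, 8.93 and 9.02, CA3 arrays 7.45 to 8, CA2 arrays 6.65 to 7.11 and CA1 arrays 6.25 to 6.54. The fields did not overlap, so the order DG, CA3, CA2, CA1 was complete. DG exceeded the other fields by 1.78 (SE 0.107, limma adjusted p = 4.53e-09) and CA1 lay at -1.38 (adjusted p = 3.74e-07). Of the other IGF1 probe sets, one moved by 1.93 in DG and another, with a mean of 5.15, by -0.08, and the mean over them was 0.92 in DG and -0.81 in CA1, both under the size threshold. In V1 IGF1 was higher in layer 2 (change 1.10, SE 0.212, adjusted p = 0.000506, 0.91 without male A and 0.78 with the mean over probe sets) and lowest in 4Cb, at 5.91, 5.99, 6.32 and 6.48.

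IGFBP2 and IGFBP6, a binding protein with a preference for IGF2, were both lower in the LGN. IGFBP2 read 4.91 to 5.2 in LGN, 5.48 to 5.76 in hippocampus and 6.55 to 6.93 in cortex, and IGFBP6 read 5.26 to 5.74, 6.85 to 7.46 and 7.25 to 7.59. LGN lay below cortex by a log2 change of -1.70 for IGFBP2 (SE 0.091, limma adjusted p = 1.93e-08) and -1.85 for IGFBP6 (SE 0.113, adjusted p = 5.78e-08). Hippocampus lay below cortex for IGFBP2 (-1.08, adjusted p = 2.02e-06) and was not called for IGFBP6. CA3 was the high field for IGFBP2, at 6.38, 6.44, 6.47 and 6.61 against 4.80 to 5.94 elsewhere in the hippocampus (change 1.11, SE 0.122, adjusted p = 1.16e-05).

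In V1 the pair of binding proteins had opposite layer orders. IGFBP2 was low in layer 2, at 5.90, 6.62, 6.81 and 6.83, and high through layers 3 to 4Cb, where the lowest array read 7.53. Its layer 2 overlapped with no other layer (change -1.31, SE 0.174, limma adjusted p = 4.03e-06). IGFBP6 was high in layer 2, at 7.65, 7.84, 7.99 and 8.07 (change 1.37, SE 0.159, adjusted p = 5.37e-07), and lowest in 4Ca, at 5.35, 5.46, 5.54 and 5.89 (change -1.29, adjusted p = 2.83e-06). Across areas IGFBP2 was called by the F test, with means from 6.14 in ACG to 7.32 in V1 (adjusted p = 6.06e-06). IGFBP7, a binding protein of vessel walls with low affinity for IGFs, ranged by 1.30 among V1 layers (F test adjusted p = 0.00062), and IGFBP4 by 1.01 among hippocampal fields, highest in CA1 and lowest in DG (adjusted p = 7.91e-05).

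The receptors of this family moved less. IGF1R, the receptor tyrosine kinase, and IGF2R, which clears IGF2, were not called in any comparison; hippocampus and cortex differed in IGF1R by 0.03 (SE 0.086) and LGN and cortex in IGF2R by -0.29 (SE 0.080). IGF1 and IGF1R correlated at r = -0.22 over the groups. Of the other insulin and IGF signalling genes, 9 of 18 listed were tested among layers, and none was called in layer 6 (all genes called 1.63%). In DG 1 of 9 rose (all genes called 10.2% in either direction), the transcription factor FOXO1, which insulin and IGF signals keep out of the nucleus, by 2.51.

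The neurotrophin members were few, and the ligand NTF3 stood out in the dentate gyrus. Neurotrophin 3 (NTF3) is the main ligand of NTRK3 (TrkC). NTF3 read 8.19, 8.36, 8.44 and 8.76 in DG, 5.02 to 5.88 in CA2, 4.41 to 4.96 in CA1 and 4.40 to 4.79 in CA3. The 4 DG arrays lay above every array of the other fields. CA1 and CA3 lay around the filter's level of 4.77, the median of all probe sets, and the mean of NTF3 over all arrays was below it. NTF3 entered the hippocampal and structure comparisons through its DG level, so its values are given as a description with no test or fold, and the counts for those comparisons include it. The hippocampal means of 5.63 to 5.98, against 4.36 to 4.44 in cortex and 4.51 to 4.67 in LGN, likewise rest on DG.

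NTRK3 was highest in layer 2 and lowest in layer 5, with means of 9.07, 8.53, 7.86, 7.65 and 8.03 in layers 2 to 6. Layer 2 values were 9.05, 9.17, 9.09 and 8.98 in animals A, C, D and E, and layer 5 values 7.69, 7.77, 7.54 and 7.62. Layer 2 overlapped with no other layer (change 1.05, SE 0.061, limma adjusted p = 6.36e-11). Its other probe sets gave 0.96, 0.23 and 0.29, the last pair at mean levels of 4.90 and 4.75 near the array's median, and the mean over the probe sets was 0.63, under the size threshold. In the hippocampus it was also highest in DG, at 9.40, 9.45, 9.66 and 9.83, with no overlap, although its range of 0.99 missed the size threshold (F test adjusted p = 9.28e-07). LGN, at 7.05 to 7.49, lay below cortex, at 8.22 to 8.38, by a log2 change of -1.07 (SE 0.085, adjusted p = 5.98e-07), which was -0.93 with cortex taken as DLPFC, MT, OFC and V2 and -0.72 with the mean over probe sets, and below hippocampus by -1.73. Over the 57 group means NTF3 and NTRK3 correlated at r = 0.17. Layer accounted for 72.6% of the variance of NTRK3 over the cortical arrays, beside 80% for ACVR1C, 66.8% for ERBB3, 61.5% for NRG1, 53.3% for TGFBR1 and 51.5% for IGF1, and a median of 8.83% for the members.

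Of the other neurotrophin and GDNF signalling genes, 12 or 13 of 22 listed were tested. BDNF, the ligand of NTRK2, fell in layer 4 by 1.02 on the log2 scale and rose in DG by 1.47. It was higher in hippocampus than in cortex by 1.59 and changed by -2.02 in LGN against cortex and -3.61 against hippocampus. GFRA2, a co-receptor for neurturin, was lower in LGN than in cortex (-1.91). The sorting receptor SORCS1 was lower in hippocampus than in cortex (-3.17) and higher in LGN than in hippocampus (2.62).

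The PDGF and VEGF members, all above the array's median, gave a call in 1 gene. VEGFB, a ligand of the receptor FLT1, was higher in LGN, at 9.04 to 9.37, than in hippocampus, at 8.01 to 8.22, by 1.05 (SE 0.069, limma adjusted p = 7.07e-08). A second VEGFB probe set gave 0.58, and the mean of both 0.81. Of the 5 endothelial markers measured, 3 were also higher in LGN than in hippocampus, and their part was not tested. PDGFA, a ligand of the receptor on oligodendrocyte precursors, was higher in LGN, at 10.20 to 10.65, than in cortex, at 9.43 to 9.46, by 0.95 (adjusted p = 6.80e-07), under the size threshold. PDGFB and PDGFC were called in no comparison. Of related receptors and ligands, 10 or 11 of 18 listed were tested, and the hepatocyte growth factor receptor MET varied most: 1.89 in layer 3, -2.85 in layer 6, -2.69 in ACG, 1.97 in TE, 3.57 in CA1 and -4.13 in DG. In DG 0 of 11 rose and 4 fell (all genes called 10.2% in either direction), MET, KIT (-1.99) and TEK (-1.30) among them. Of the 14 listed EGF family genes only 4 were tested in most comparisons, and HBEGF was higher in LGN than in cortex (1.15).

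Among the LGN divisions no member was called by limma at both thresholds. At adjusted p alone, 5 members passed in the F test (all genes 3.01%). In single contrasts at adjusted p alone (all genes 1.26% in M and 2.08% in K), the koniocellular division was higher for BMP7 (0.66), ERBB3 (0.85), FGFR2 (0.55) and IGFBP7 (0.56), and the magnocellular division lower for ERBB3 (-0.59) and higher for IGFBP6 (0.65). At unadjusted p under 0.05, 14 members passed in the M contrast (all genes 13.9%), 12 in P (all genes 8.88%) and 12 in K (all genes 10.3%). Males and females, with 2 animals each, gave 0 of 58 members called (all genes 0%) and 2 at unadjusted p under 0.05 (all genes 6.23%), FGF14 (-0.54) and IGFBP6 (-0.26).

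The 24 members not above the array's median were NTF3, NTF4, NRG4, IGF2BP1, IGF2BP2, IGF2BP3, IGFBP1, IGFBP3, IGFBP5, BMP3, BMP10, BMP15, BMPR1B, ACVRL1, GDF2, GDF3, GDF11, FGF2, FGF4, FGF6, FGF16, FGF17, FGF19 and FGF20. Of these, NTF3 and NRG4 had a mean in the whole-brain pool above that median, at 5.02 and 5.23. A low intensity here bounds no RNA level, since probe sets differ in sensitivity. Receptors such as NTRK2, ERBB4, PDGFRA, BMPR1A and BMPR2, and the ligand VEGFA, were not analysed here.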

How the data were processed

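The deposited values are log10 intensities that the authors computed with RMA within each amplification batch in Matlab 2007b and then scaled per probe set on control samples common to the batches, per the file headers. They were multiplied by log2 of 10 and are given on the log2 scale. A log2 scale had been assumed when the tests were set out, and the headers settled the base. Of 52865 probe sets, 24969 carried 1 gene symbol, 361 several and 27535 none, from GEO's platform annotation. The 169 member probe sets whose Entrez identifier was found in the RefSeq list kept their symbol. Genes were tested where their mean over the units of a comparison exceeded 4.77. Units were means per animal and layer, area or structure, or single arrays in V1, hippocampus and LGN, fitted with limma 3.58.1 (lmFit, eBayes) in R 4.3.3 with the animal as a block. Arrays of 1 animal share that animal: deviations from group means correlated with a median of 0.174 between arrays of the same animal and -0.0493 between animals. Animals with missing layers were left out of a unit. The number of arrays limits the precision. On simulated data with a log2 change of 1.5, the fits recovered 100 of 100 changed genes among layers, 96 of 100 in V1, 99 of 100 in hippocampus and 99 of 100 in LGN. Named calls were all called contrasts of members. Named members were all that were called and the 20 with the widest range of group means. The members and lists were chosen with earlier results of these data known. Filtering, probe set choice, quantile normalization, the block, single animals, control sets and arrays closest to another layer were tried as alternatives, the last chosen after the data were seen.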

Additional observations from a re-analysis of the deposited data

Results flagged for a closer look

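Among 62 pairs of a named member and its highest or lowest group, 1 held an array far from the others, where chance alone would give about 1 in 20. In 4Cb of V1, the group in which NRG1 was lowest, female E read 4.94 and the other animals read 4.32 to 4.37, a gap of 0.919 of the group's whole range.

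The deep minus upper difference of ACVR1C was more negative in V1 than in the other areas of the same animals by -0.964 on the log2 scale (SE 0.137, limma adjusted p = 0.0372), in 4 of 4 animals. The size missed the threshold of 1.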

How the results depend on the processing

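With the mean over all probe sets of a gene, the count fell from 7 to 4 among layers, from 3 to 1 between deep and upper layers and from 4 to 2 among areas. Of 93 named calls that could be recomputed so, 42 lost the threshold, 0 reversed. In DLPFC, MT, OFC and V2 alone, 0 members were called among areas, but this set lacks ACG, M1 and V1, on which the calls rest. With quantile normalization, 1 was called for the deep minus upper difference of V1 (0 as reported). Leaving out each animal in turn gave 7 to 7 among layers, 3 to 3 between deep and upper layers, 4 to 6 among areas, 14 to 19 in V1, 16 to 18 in hippocampus, 0 in LGN, 7 to 8 for hippocampus and cortex, 12 to 14 for LGN and cortex and 18 to 20 for LGN and hippocampus. Without the animal as a replicate block the counts were 7, 3, 4, 18, 16, 0, 7, 12 and 19 in the same order, and 4 of 97 named calls lost the threshold: ERBB3 in ACG (-0.91) and M1 (0.99), NRG1 in V1 (-1.0) and FGF18 in layer 3 of V1 by its adjusted p. Of the 97 named calls, 47 passed under every alternative run and 50 lost the call under at least one. The counts of named calls, and the 47, include those of NTF3. Its DG level admitted it, so its part of these counts is no support. Quantile normalization took ERBB3 in ACG to -0.98 and in M1 to 0.97, FGF18 in layer 3 of V1 to 0.98 and NTRK3 for LGN minus cortex to -0.96. Leaving out single animals took NRG1 in layer 2 of V1 to -0.95 (male C) and GDF6 in DG to -1.0 (female D). No sex comparison without single animals or with a block was possible, since each sex had 2 animals. Signal over background limits the 24 members under the median, and no array's amplification batch is known.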
